A study of Homo sapiens with 2 samples.

Results

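The stretch described here is the cluster of CEACAM and PSG genes on the long arm of chromosome 19, chr19:42170001-43780000 on hg19, read in H3K27me3 ChIP-seq of HCT116, an established human colorectal carcinoma line. Its members are all 1610 bins of 1 kb in that interval, taken whatever their level, out of 2736177 bins listed in either library on chromosomes 1 to 22 and X. The interval itself was chosen with earlier results of these data known. Within it, 110 bins cover CEACAM7, CEACAM5 and CEACAM6 (chr19:42170001-42280000), 25 bins cover CEACAM1 (chr19:43010001-43035000) and 560 bins cover the PSG genes (chr19:43220001-43780000). The 730 bins between CEACAM6 and CEACAM1 and the 185 bins between CEACAM1 and the PSG genes complete the interval. The study holds 1 group of 2 libraries, labelled as biological replicates of cells from the same line grown in McCoy's 5A medium with serum, with no treatment or engineered allele named. No input library was used here, so copy number and mappability are not corrected, and RNA was not measured, so neither the transcription of these genes nor markers of the cell line can be checked in these data.

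H3K27me3, trimethylated lysine 27 of histone H3, is laid down by Polycomb repressive complex 2 and often covers repressed genes in broad blocks. The CEACAM and PSG genes are branches of the carcinoembryonic antigen family within the immunoglobulin superfamily, and they arose by repeated duplication. CEACAM5 encodes carcinoembryonic antigen itself, the serum marker used to follow colorectal cancer. Like CEACAM5, CEACAM6 and CEACAM7 encode adhesion glycoproteins held in the membrane by a lipid anchor, and all of these are made in the epithelium of the normal colon. CEACAM1 encodes a transmembrane receptor of epithelial and immune cells whose longer forms carry an inhibitory signalling tail. The PSG genes encode the pregnancy-specific glycoproteins, secreted in large amounts by the syncytiotrophoblast of the placenta. The comparison made here sets genes of the colon, the tissue the line came from, against genes of a tissue unrelated to it.

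In the RefSeq gene table, which is on GRCh38.p14 and was used only for names and order, CEACAM7, CEACAM5 and CEACAM6 stand side by side. They are followed by 36 genes up to CEACAM1, of which 24 encode proteins. These begin with the granulocyte receptor gene CEACAM3 and include RPS19 (a ribosomal protein), GSK3A (a protein kinase), CIC (a transcriptional repressor) and LIPE (hormone-sensitive lipase). Between CEACAM1 and PSG3 the only protein-coding gene is CEACAM8, a granulocyte marker, beside 4 pseudogenes. From PSG3 to PSG9 the table lists 20 genes, of which 10 are protein-coding and all of those are PSG genes (PSG3, PSG8, PSG1, PSG6, PSG7, PSG11, PSG2, PSG5, PSG4 and PSG9). A further 7 are pseudogenes. No hg19 positions of single genes entered the analysis, so levels are given for stretches and not for single genes, apart from CEACAM1, which has a stretch of its own.

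The promoters of these genes are shown first because they share 2 features that the choice of the stretch did not use, few CG dinucleotides and close similarity within each family. The RefSeq promoter table (GRCh38.p14) held CEACAM7, CEACAM5, CEACAM6 and CEACAM1 and 3 of the 10 PSG genes, PSG3, PSG5 and PSG4. The 250 bases before the gene start are printed 5′ to 3′ with each CG in capitals. Their positions are on GRCh38.p14, another build than that of the read counts, with the strand in brackets: CEACAM7 at chr19:41688271-41688520 (-), CEACAM5 at chr19:41708376-41708625 (+), CEACAM6 at chr19:41755280-41755529 (+), CEACAM1 at chr19:42528482-42528731 (-), PSG3 at chr19:42740482-42740731 (-) and PSG4 at chr19:43205639-43205888 (-).
CEACAM7: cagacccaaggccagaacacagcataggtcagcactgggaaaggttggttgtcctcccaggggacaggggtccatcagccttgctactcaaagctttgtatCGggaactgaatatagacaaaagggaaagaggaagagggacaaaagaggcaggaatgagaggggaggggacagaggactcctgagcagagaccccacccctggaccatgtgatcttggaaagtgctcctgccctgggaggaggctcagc
CEACAM5: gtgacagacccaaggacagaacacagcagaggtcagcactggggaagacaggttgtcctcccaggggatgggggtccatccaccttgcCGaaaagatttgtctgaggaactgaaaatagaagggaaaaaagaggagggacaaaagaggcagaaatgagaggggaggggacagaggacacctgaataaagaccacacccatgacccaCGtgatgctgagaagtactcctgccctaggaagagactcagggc
CEACAM6: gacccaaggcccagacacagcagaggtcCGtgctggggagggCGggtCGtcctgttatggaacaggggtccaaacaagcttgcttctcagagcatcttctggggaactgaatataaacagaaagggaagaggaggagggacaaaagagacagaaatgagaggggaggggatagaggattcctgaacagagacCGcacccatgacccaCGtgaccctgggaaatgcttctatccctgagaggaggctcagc
CEACAM1: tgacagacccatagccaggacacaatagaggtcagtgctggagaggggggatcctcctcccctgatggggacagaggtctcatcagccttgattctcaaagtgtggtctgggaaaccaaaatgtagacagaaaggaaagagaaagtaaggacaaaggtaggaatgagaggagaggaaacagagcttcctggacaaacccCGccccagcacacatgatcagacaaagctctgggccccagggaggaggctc
PSG3: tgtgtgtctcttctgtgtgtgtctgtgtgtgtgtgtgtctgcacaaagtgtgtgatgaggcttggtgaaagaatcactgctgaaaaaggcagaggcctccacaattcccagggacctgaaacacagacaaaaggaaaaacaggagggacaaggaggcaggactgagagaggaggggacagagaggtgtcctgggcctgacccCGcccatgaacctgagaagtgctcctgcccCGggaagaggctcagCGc
PSG4: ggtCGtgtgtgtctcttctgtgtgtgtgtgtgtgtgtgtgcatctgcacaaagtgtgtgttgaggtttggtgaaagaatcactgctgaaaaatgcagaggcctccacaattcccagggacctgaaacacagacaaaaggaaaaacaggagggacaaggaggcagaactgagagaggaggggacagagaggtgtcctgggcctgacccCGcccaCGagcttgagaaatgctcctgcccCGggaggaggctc

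The 7 promoters held few CG dinucleotides. CEACAM7, CEACAM1 and PSG5 each had 1 in 250 bases, CEACAM5 had 2, PSG3 had 3, PSG4 had 4 and CEACAM6 had 5. Over all 35116 promoters of the table the median was 11, with quartiles of 3 and 23, and 38.1% of them had at most 5. The 32 promoters listed for 21 of the protein-coding genes between CEACAM6 and CEACAM1 had a median of 18.5, ranging from 1 to 44, and 5 of them had at most 5. All 7 thus lay in the CG-poor part of the distribution, which holds a large share of human promoters. The GC content of the 4 CEACAM and 3 PSG promoters ran from 53.2% to 55.6%, against a median of 58% over all promoters.

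**Figure D1:**
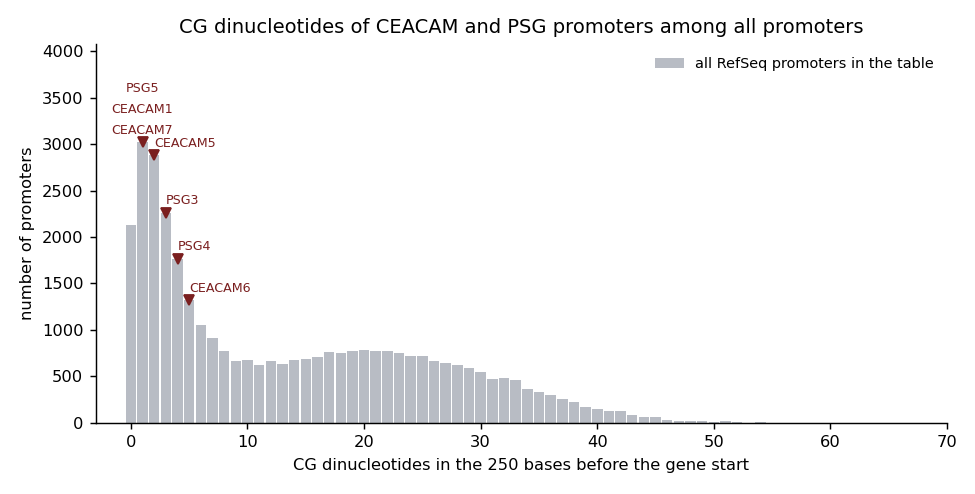
Number of RefSeq promoters (vertical axis) by their CG dinucleotides in the 250 bases before the gene start (horizontal axis). The named triangles mark the 4 colon CEACAM and 3 PSG promoters found in the table, which hold 1 to 5 CG dinucleotides against a median of 11 over all 35116.

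Within each family the promoters were similar. Identity in a global alignment ran from 66.2% to 80.5% over the 6 pairs of colon CEACAM genes and from 72.4% to 91.4% over the 3 pairs of PSG genes. Between the families it ran from 47.3% to 60.9% over 12 pairs. CEACAM7 and CEACAM5 were 80.5% identical, and PSG3 and PSG4 were 91.4% identical. The longest exact run was 89 bases between PSG5 and PSG4, 71 between PSG3 and PSG4 and 25 between CEACAM7 and CEACAM5. The promoter of CEACAM8 was nearer to PSG3, at 85.5%, than to CEACAM5, at 57.0%. Such runs may bear on the read counts, because a read shorter than a shared run can match another PSG gene. Neither the read length nor how reads with several matches were placed is given in the sources used here. Their part in the levels was not tested.

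Levels are read counts of a bin or stretch over the library's mean of listed autosomal 1 kb bins, which was 22 reads in replicate 1 and 37.5 in replicate 2 (53187504 and 97031399 reads in total). A level of 1 is that mean, and a bin with no read counts as 0. In replicates 1 and 2 the median listed autosomal bin had levels of 0.409 and 0.373, and the 90th and 99th percentiles at 2.91 and 6.45 in replicate 1 and at 2.93 and 6.71 in replicate 2. Chromosome 19 as a whole averaged 0.932 and 0.903 over its listed bins. A 5 kb bin was counted as enriched when its level was at least 2 and a one-sided Poisson test against the autosomal mean, Benjamini-Hochberg adjusted over the genome, gave p under 0.05, in both libraries. Levels of the cluster were slightly higher in replicate 2, by 1.06 times over the whole interval. Replicate 1 lists 2470347 bins and replicate 2 lists 2652211, and the scale is a mean over listed bins. Scaled to the mean of 5 kb bins instead, replicate 2 stood at 0.996 times replicate 1.

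The cluster as a whole carried H3K27me3 at levels of 2.73 and 2.90 in replicates 1 and 2, or 2.82 ± 0.120 (SD, n = 2). Of its 322 bins of 5 kb, 188 (58.4%) were enriched in both libraries, against a background of 12.8% over the autosomes and X and 11.8% on chromosome 19. At 1 kb, 864 of the 1610 bins (53.7%) reached a level of 2 in both libraries, where the background was 12.2%. The mark was not spread evenly. It formed a high block over CEACAM7, CEACAM5 and CEACAM6 and alternated between islands and runs near 0 over the gene-dense stretch that follows. It was low over CEACAM1, rose over the stretch with CEACAM8, and held a lower long plateau through the PSG genes.

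**Figure D2:**
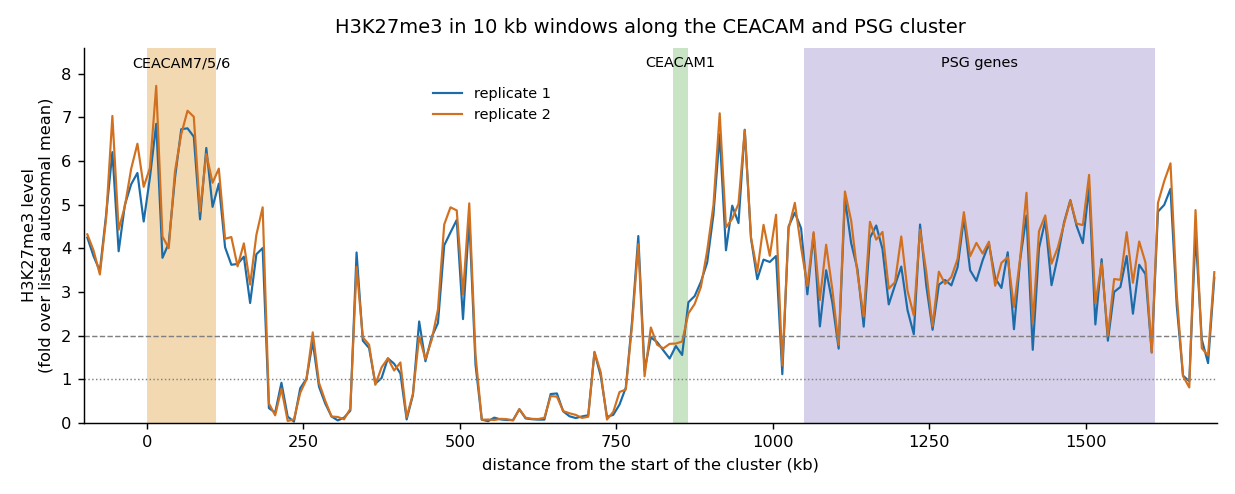
H3K27me3 level (vertical axis, fold over the mean of listed autosomal 1 kb bins) in consecutive 10 kb windows against distance from the start of the cluster in kb, for both replicates, with 100 kb on each side. Shading marks the 3 named stretches, the dashed line a level of 2 and the dotted line a level of 1; the mark is highest over CEACAM7, CEACAM5 and CEACAM6, near 0 in parts of the gene-dense stretch after them, and mostly between 2 and 5 over the PSG genes.

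CEACAM7, CEACAM5 and CEACAM6, the genes of colon epithelium, lay in the most heavily marked of the 5 stretches. The level was 5.63 in replicate 1 (95% counting interval 5.48 to 5.78) and 5.90 in replicate 2 (5.78 to 6.02), or 5.77 ± 0.191 (SD, n = 2). All 22 of its 5 kb bins were enriched in both libraries, against a background of 12.8%. All 22 also passed a minimum of 3-fold, for which no share over all bins was taken. The lowest of them, chr19:42195001-42200000, stood at 3.17 and 3.26, and the highest, chr19:42185001-42190000, at 7.78 and 7.90. At 1 kb, 104 of 110 bins (94.5%) reached a level of 2 in both libraries, against a background of 12.2%. A level of 5 was reached by 64 (58.2%) in both libraries, against 2.12%. No bin was under 1 in both libraries, against 72.5% of listed bins in the background. The 1 kb bins ran from 0.864 through a median of 6.02 to 10.1 in replicate 1, and from 1.04 through 6.14 to 10.1 in replicate 2. At 5 kb the mark thus covered the whole stretch in both libraries, with no unlisted bin, while at 1 kb its lowest bin, chr19:42257001-42258000, stood near the autosomal mean.

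The block over these genes was uneven inside. Of its 11 windows of 10 kb, 7 reached a level of 5 in both libraries, against a background of 1.59%. Its highest window, chr19:42180001-42190000, stood at 6.85 in replicate 1 and 7.72 in replicate 2. The window next to it, chr19:42190001-42200000, stood at 3.78 and 4.27, the lowest in replicate 1, and the one after it, chr19:42200001-42210000, at 4.11 and 4.0, the lowest in replicate 2. Levels were therefore lower between 42190001 and 42210000 than in the windows on either side. A second dip farther right, chr19:42250001-42260000, stood at 4.66 in replicate 1 and 4.85 in replicate 2.

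The block extended beyond the genes on both sides. Enriched 5 kb bins, joined across gaps of at most 1 bin, made a domain of 345 kb from 42015001 to 42360000, with 68 enriched bins at a level of 4.94 ± 0.227 (SD, n = 2). The 100 kb before the cluster stood at 4.73 in replicate 1 and 5.04 in replicate 2. All 20 of its 5 kb bins were enriched, against a background of 12.8%. On the other side the domain ended abruptly. The last 10 kb before its end held levels of 4.0 and 4.94, and the next 10 kb held 0.336 and 0.445, a step of 11.9 and 11.1 times. Over 50 kb on each side the levels were 3.61 and 4.02 against 0.331 and 0.303. The position of this edge was set by the same libraries, and the rule for joining bins fixes part of the step over 10 kb.

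**Figure D3:**
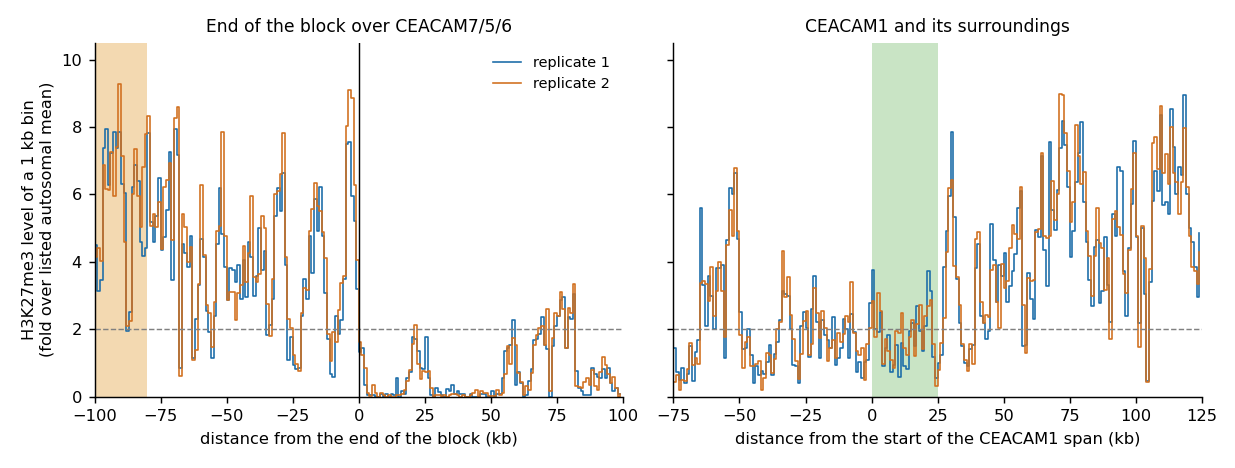
H3K27me3 level of 1 kb bins (vertical axis, fold over the mean of listed autosomal 1 kb bins) in both replicates, against distance in kb from the end of the domain over CEACAM7, CEACAM5 and CEACAM6 (left, end of their stretch shaded) and from the start of the CEACAM1 stretch (right, shaded). The dashed line marks a level of 2; at the vertical line on the left the mean over 10 kb falls from 4.0 and 4.94 to 0.336 and 0.445, and on the right the CEACAM1 stretch holds levels of 0.32 to 3.8.

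The 730 kb between CEACAM6 and CEACAM1, where the gene table places RPS19, GSK3A, CIC and their neighbours, had the lowest mean of the 5 stretches. Its level was 1.43 in replicate 1 and 1.52 in replicate 2, but this mean joins unlike parts, since the median 1 kb bin stood at 0.659 and 0.719. The first 80 kb of the stretch are the tail of the block over CEACAM7, CEACAM5 and CEACAM6. The last 50 kb of that tail stood at 3.61 and 4.02 in replicates 1 and 2. The mean, the median and the shares below all include the tail. With it, both the mean and the median were above those of listed autosomal bins. In both libraries 308 of the 730 bins (42.2%) were under 0.5, less than the background of 55.3%. Of its 73 windows of 10 kb, 27 were under 0.5 in both libraries, against a background of 59.1%. The longest run of 5 kb bins under 0.5 covered 65 kb from 42700001 to 42765000, at 0.0818 and 0.0758. This is also the stretch with the most unlisted bins, 97 in replicate 1 and 53 in replicate 2, and 22 in both.

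Islands of the mark stood inside this stretch. Of its 146 bins of 5 kb, 38 (26.0%) were enriched in both libraries, above the background of 12.8%. Of the islands that lay wholly inside it, the longest covered 65 kb from 42625001 to 42690000. Its 12 enriched bins averaged a level of 3.95 ± 0.277 (SD, n = 2). Short islands of 15 kb from 42945001 to 42960000 and 10 kb from 42500001 to 42510000 reached 3.94 ± 0.122 and 3.74 ± 0.233 (SD, n = 2). Part of the 38 bins belong to the tail of the block over CEACAM7, CEACAM5 and CEACAM6, which runs 80 kb into the stretch. The 26.0% therefore counts more than the islands, and the share without the tail was not set against the background.

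CEACAM1, the remaining colon gene, carried much less of the mark than its relatives. The level was 1.75 in replicate 1 (95% counting interval 1.58 to 1.93) and 1.87 in replicate 2 (1.73 to 2.00), or 1.81 ± 0.0802 (SD, n = 2). Its 5 consecutive bins of 5 kb stood at 2.22, 1.30, 1.17, 1.94 and 2.14 in replicate 1 and at 2.24, 1.39, 1.77, 1.96 and 1.97 in replicate 2. The outer bins were thus the higher ones, and 1 of the 5 (20%), the first, was enriched in both libraries, against a background of 12.8%. This count is unstable because several bins lie just under the minimum: 3 of 5 passed at a minimum of 1.5 and none at 3. Replicate 1 alone gave 2 enriched bins. At 1 kb, 7 of 25 bins (28%) reached a level of 2 in both libraries, against a background of 12.2%, and none reached 5. In both libraries 3 bins (12%) were under 1, against a background of 72.5%. The stretch was therefore above the autosomal mean and below the CEACAM7, CEACAM5 and CEACAM6 level in each library.

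The levels around CEACAM1 were unequal. Over the 50 kb before the stretch they were 1.63 and 1.71, against 1.75 and 1.87 in CEACAM1 itself. Over the 50 kb after it they were 3.96 and 4.03. The last 1 kb bin of the stretch held only 0.545 and 0.320, and the highest bin of the next 10 kb, chr19:43040001-43041000, held 7.86 and 6.42. CEACAM1 thus lay at the low side of a rise into the stretch between it and the PSG genes.

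The 185 kb between CEACAM1 and the PSG genes, where the gene table places CEACAM8, was heavily marked. Its level was 4.15 in replicate 1 and 4.32 in replicate 2, or 4.24 ± 0.121 (SD, n = 2). Of its 37 bins of 5 kb, 34 (91.9%) were enriched in both libraries, against a background of 12.8%. The highest 10 kb window, chr19:43080001-43090000, reached 6.61 and 7.09. The lowest, chr19:43180001-43190000, fell to 1.11 and 1.31 and separated a domain of 145 kb that began at 43035001 from the one that entered the PSG genes.

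The PSG genes, expressed in the placenta, lay under a long plateau of intermediate height. The level was 3.44 in replicate 1 (95% counting interval 3.38 to 3.49) and 3.69 in replicate 2 (3.65 to 3.73), or 3.56 ± 0.181 (SD, n = 2). Of 112 bins of 5 kb, 93 (83.0%) were enriched in both libraries, against a background of 12.8%. At a minimum of 3-fold 69 of them passed, for which no share over all bins was taken. At 1 kb, 420 of 560 bins (75%) reached a level of 2 in both libraries, against a background of 12.2%. In both libraries 72 (12.9%) reached a level of 5, against 2.12%, and 27 (4.82%) were under 1, against 72.5%. The 1 kb bins ran from 0.0909 through a median of 3.5 to 8.23 in replicate 1, and from 0 through 3.70 to 8.34 in replicate 2. Replicate 1 listed every bin of the stretch, and replicate 2 left 1 unlisted.

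The plateau held along its whole length. Cut into 5 equal parts of 112 kb from PSG3 towards PSG9, its levels were 3.35, 3.19, 3.61, 3.87 and 3.16 in replicate 1 and 3.62, 3.41, 3.85, 4.11 and 3.47 in replicate 2. The fourth part was the highest in both libraries, and the gap between the highest and the lowest part was smaller than the gap to the CEACAM7, CEACAM5 and CEACAM6 level. Among the 56 windows of 10 kb the level ran from 1.61 to 5.40 in replicate 1 and from 1.61 to 5.68 in replicate 2. The highest was chr19:43670001-43680000 and the lowest chr19:43770001-43780000, at 1.61 in both, directly before a rise beyond the cluster.

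Short dips interrupted the plateau, and only those of more than 1 bin of 5 kb parted joined domains. Of the joined domains that lay in or entered the PSG stretch, 3 were longer than 100 kb: 165 kb from 43190001 to 43355000 at 4.11 ± 0.128, 215 kb from 43365001 to 43580000 at 3.77 ± 0.182, and 115 kb from 43590001 to 43705000 at 4.25 ± 0.133 (each SD, n = 2). These levels are means over the enriched bins alone, 29, 39 and 22 in that order. The lower bins joined across were left out of them. Inside the 165 kb domain, the deepest dip over 5 kb, chr19:43310001-43315000, held 0.591 and 0.693. A run of 1 kb bins that overlaps it, from 43308001 to 43313000, averaged 0.473 and 0.304. Other runs of at least 3 kb under 1 lay from 43273001 to 43276000 and from 43749001 to 43753000. These runs were defined as under 1 in both libraries. Whether they fall on sequence that reads cannot reach was not tested.

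The colon genes and the placental genes were then compared directly, and the answer differed between the colon genes. The PSG stretch stood below the CEACAM7, CEACAM5 and CEACAM6 stretch, at 0.610 of its level in replicate 1 (95% counting interval 0.592 to 0.629) and 0.626 in replicate 2 (0.612 to 0.640). On the log2 scale this was -0.69 ± 0.026 (SD, n = 2). It stood above CEACAM1, at 1.96 times its level in replicate 1 (1.77 to 2.17) and 1.98 times in replicate 2 (1.84 to 2.13), a log2 ratio of 0.98 ± 0.0093 (SD, n = 2). With the colon stretches pooled, 135 bins at 4.91 and 5.15, the PSG stretch stood at 0.699 and 0.716 of their level, a log2 ratio of -0.50 ± 0.024 (SD, n = 2). The PSG level lay between those of the colon stretches, so the colon stretches necessarily differed most from each other. CEACAM7, CEACAM5 and CEACAM6 stood at 3.21 and 3.16 times the level of CEACAM1.

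Each of these differences had the same direction in both libraries and was larger than the spread between them, and the counting intervals of the levels did not overlap. An exact two-sided sign-flip permutation test over 2 libraries cannot give a p below 0.5, and it gave 0.5 for each of these ratios. Bins within a stretch share their library and their neighbours and were not used as replicates. The order of levels in both libraries was CEACAM7, CEACAM5 and CEACAM6 first, then the stretch with CEACAM8, the PSG genes, CEACAM1 and the stretch between CEACAM6 and CEACAM1. The counting intervals of neighbours in that order did not overlap in either library.

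**Figure D4:**
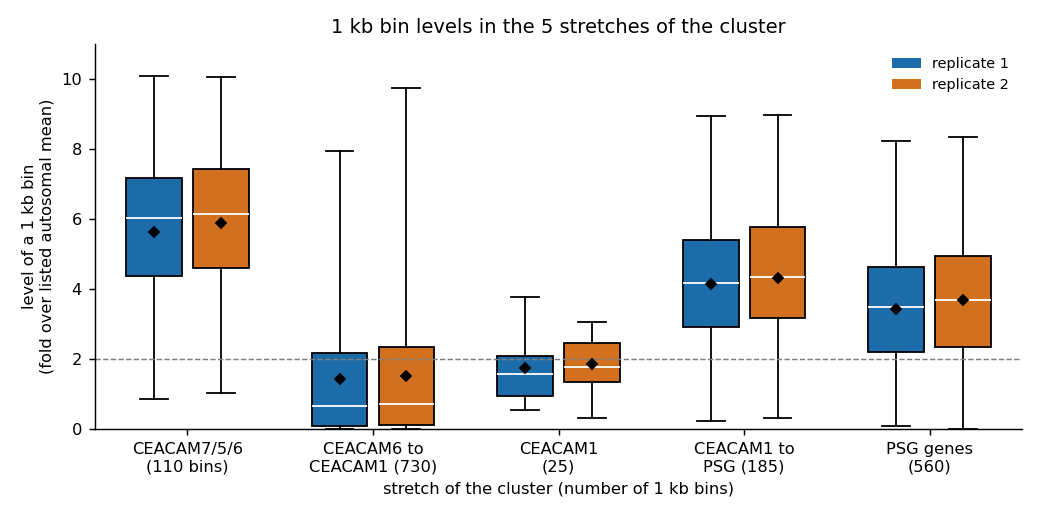
Levels of 1 kb bins (vertical axis, fold over the mean of listed autosomal 1 kb bins) in the 5 stretches of the cluster, for both replicates. Boxes span the quartiles with a white line at the median, whiskers reach the lowest and highest bin, diamonds are means and the dashed line marks a level of 2; CEACAM1 lies far below CEACAM7, CEACAM5 and CEACAM6 (means 1.75 and 1.87 against 5.63 and 5.90), and the PSG genes lie between them.

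The replicates gave the same profile. Across 1 kb bins, which are neighbours and share a library, Pearson's r of log2(level + 0.1) was 0.956 over the cluster, 0.913 in the CEACAM7, CEACAM5 and CEACAM6 stretch, 0.906 in the PSG stretch and 0.768 over the 25 bins of CEACAM1. A binomial test per 5 kb bin, with counts divided by the dispersion of 2.63 between the libraries and Benjamini-Hochberg adjustment over the genome, found 0 of 322 bins of the cluster to differ, and 0% of the genome. At an unadjusted p under 0.05 there were 14 bins of the cluster (4.35%), 9 of them higher in replicate 1, against a background of 3.38%. On counts as deposited the same test called 25 bins of the cluster (7.76%), against a background of 5.89%. The dispersion was estimated from these libraries, so it also absorbs any real difference between them. With the dispersion, the binomial p-values set each bin against the spread over the genome between these 2 libraries, which may be technical.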

How the data were processed

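H3K27me3 was measured by ChIP-seq in 2 libraries of HCT116 cells. Per the text the authors deposited, the values are raw read counts in bins of 1000 bases. The aligner was BWA 0.7.12 and the build hg19, per the submitters' processing notes. Not given in the sources used here were the counting tool, the read length and any filter on duplicates or mapping quality.

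Enrichment and replicate differences were tested over all 5 kb bins of chromosomes 1 to 22 and X (562365 listed; at least 20 reads for the binomial test), and the bins of the cluster were then read out. Counting intervals (95%) were widened by the dispersion between libraries, 2.52 at 1 kb, and cover counting error only. At a level of 2 this error was 10.9% of a 5 kb bin in replicate 1 and 8.37% in replicate 2, and 23.9% and 18.3% of a 1 kb bin. The enrichment calls, the estimate of the dispersion and the binomial test without the dispersion were tested on simulated counts. The binomial test with the dispersion was not, so its power to find a difference is not known. Scripts ran on Python 3.11.15 with scipy 1.17.1, numpy 2.4.6, biopython 1.88, pandas 2.3.3 and matplotlib 3.10.9.

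The interval, its stretches, the gene lists and the alternatives were chosen with earlier results of these data known. The pooled colon stretches, the equal parts of the PSG stretch, the low runs, the identity of promoters and the edges were added after the values had been seen. Named genes are those of the rule (CEACAM7, CEACAM5, CEACAM6, CEACAM1 and the PSG genes), other CEACAM genes, and neighbours in the gene table. CEACAM4, CEACAM16, CEACAM18, CEACAM19, CEACAM20 and CEACAM21 lie outside the interval in that table. Alternatives were other scales, bins, fold minimums, edges, summaries and treatment of unlisted bins, and each replicate left out.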

Additional observations from a re-analysis of the deposited data

How the results depend on the processing

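Of 114 values under alternatives, 74 stayed within 1 SD of the replicates (for shares, within 1.5 times) and 40 moved. No log2 ratio changed sign. With 2 libraries, a level or ratio from 1 replicate alone always lies within 1 SD of the mean, so those values could not move. Levels of the CEACAM7, CEACAM5 and CEACAM6 stretch, CEACAM1, the PSG stretch, the whole cluster and the colon stretches together became 6.28, 1.97, 3.88, 3.06 and 5.48 when scaled to the mean of 5 kb bins, 14.8, 4.64, 9.15, 7.23 and 12.9 when scaled to the autosomal median bin, and 6.29, 1.97, 3.89, 3.07 and 5.49 when scaled to chromosome 19. No scaling can change a ratio of stretches, so those values are among the 74 by construction. As the median 1 kb bin, CEACAM7, CEACAM5 and CEACAM6, CEACAM1, the cluster and the colon stretches together stood at 6.08, 1.69, 2.56 and 5.43. With unlisted bins left out the cluster stood at 2.95. Stretches widened by 5 kb gave CEACAM1 1.94 and the colon stretches 4.83; narrowed by 5 kb, 1.59 and 5.27. The log2 ratio of the PSG stretch to CEACAM7, CEACAM5 and CEACAM6, to CEACAM1 and to the colon stretches was -0.76, 1.10 and -0.59 by medians and -0.66, 0.88 and -0.43 with widened stretches, and the last 2 were 1.18 and -0.55 with narrowed ones. The enriched share of CEACAM1, 20% of 5 bins, became 0% with 10 kb bins or a minimum of 3, 60% at a minimum of 1.5 or when scaled to 5 kb bins or chromosome 19, and 80% without a minimum. It ran from 20% to 40% with a replicate left out. Bins that differ between replicates rose from 0 to 25 without the dispersion. The cause of these moves was not tested. Dividing counts by the dispersion left every enriched share as it was. Bins at a level of 2 pass the Poisson test either way, so this alternative could not change the calls. No paired analysis was possible because both libraries belong to 1 group. CEACAM1 rests on 25 bins and the fewest reads of the 5 stretches, 964 and 1751.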
